A study of Mus musculus with 16 samples.

Results

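The genes of classical MHC class I antigen presentation and of the immunoproteasome were followed in the fat of lean and obese mice. The set holds 10 genes, taken by name: the heavy chains H2-K1 and H2-D1, their light chain B2m, the peptide transporter and loading genes Tap1, Tap2 and Tapbp, the immunoproteasome subunits Psmb8, Psmb9 and Psmb10, and the transactivator Nlrc5. Their RefSeq identifiers matched 28 of the 130343 rows of the expression table, where a row is 1 annotated transcript, and the table holds 35569 gene symbols in all. The animals were wild-type male C57BL/6J mice. From 10 weeks of age, 4 mice (obese) ate a Western-type diet with 42% of its energy from fat and 0.2% cholesterol, and 4 age-matched mice (lean) ate normal laboratory chow, each for 12 to 14 months. Each mouse gave 1 library of subcutaneous fat (SAT, left and right inguinal depots combined) and 1 library of visceral fat (VAT, mesenteric depot), so the 16 libraries formed 4 groups of 4. The samples were whole tissue, so a change in the number of cells of a type and a change in RNA per cell cannot be told apart.

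MHC class I molecules display peptides from inside the cell to CD8 T cells and natural killer cells. The peptides are cut by the proteasome, carried into the endoplasmic reticulum by the transporter TAP, and loaded onto a heavy chain paired with B2m. In cells exposed to interferon-gamma, PSMB8, PSMB9 and PSMB10 take the place of the catalytic subunits of the standard proteasome, and NLRC5 drives transcription of class I genes. Nearly all cells with a nucleus carry class I molecules, leukocytes at particularly high levels, and macrophages and T cells are known to enter visceral fat in obesity.

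Most of the set lies in the MHC region of chromosome 17 (GRCm39 coordinates throughout). Tapbp lies at chr17:34134873-34148267, Psmb9 at chr17:34400960-34406738, Tap1 at chr17:34405996-34416199, Psmb8 at chr17:34416690-34420428, Tap2 at chr17:34422501-34435829 and H2-D1 at chr17:35481691-35486475. H2-K1 lies at chr17:34214987-34219321, B2m at chr2:121977957-121983594, Psmb10 at chr8:106662362-106665077 and Nlrc5 at chr8:95160984-95253900. Psmb9 and Tap1 are read in opposite directions, and their RefSeq start sites lie 226 bases apart, so the bases between them stand before both genes. The GENCODE exons of this pair also overlap. The library kit kept the strand of the RNA, but the strand setting used in counting is not stated, so reads of the overlapping part may count for either gene. Exons of Psmb8 and Tap2 overlap those of Gm20496 in the annotation.

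The promoter sequences are shown for the heavy chain, the light chain, the immunoproteasome subunit and the transporter gene described first below. Each is the stretch just before the RefSeq start site, on the plus strand of GRCm39, and capitals mark the motifs found by letters. GENCODE lets some transcripts of these genes begin further upstream. They were B2m at chr2:121977918-121978167, H2-D1 at chr17:35481820-35482069, Psmb8 at chr17:34416919-34417168, and the bases between the Psmb9 and Tap1 start sites at chr17:34406305-34406529.
B2m: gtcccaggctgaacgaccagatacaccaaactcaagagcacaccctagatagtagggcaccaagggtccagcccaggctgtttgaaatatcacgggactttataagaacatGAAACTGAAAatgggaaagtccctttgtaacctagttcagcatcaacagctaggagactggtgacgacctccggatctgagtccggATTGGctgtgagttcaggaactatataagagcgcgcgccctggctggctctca
H2-D1: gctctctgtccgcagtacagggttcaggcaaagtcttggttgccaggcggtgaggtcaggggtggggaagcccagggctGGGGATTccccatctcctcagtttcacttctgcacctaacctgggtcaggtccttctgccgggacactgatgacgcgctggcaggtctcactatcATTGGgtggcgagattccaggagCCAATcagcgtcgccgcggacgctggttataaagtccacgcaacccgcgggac
Psmb8: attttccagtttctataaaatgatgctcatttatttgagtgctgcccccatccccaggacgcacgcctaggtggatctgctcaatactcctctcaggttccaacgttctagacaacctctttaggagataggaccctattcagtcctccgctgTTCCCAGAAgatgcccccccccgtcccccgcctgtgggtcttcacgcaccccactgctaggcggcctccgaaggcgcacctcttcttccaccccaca
Psmb9-Tap1: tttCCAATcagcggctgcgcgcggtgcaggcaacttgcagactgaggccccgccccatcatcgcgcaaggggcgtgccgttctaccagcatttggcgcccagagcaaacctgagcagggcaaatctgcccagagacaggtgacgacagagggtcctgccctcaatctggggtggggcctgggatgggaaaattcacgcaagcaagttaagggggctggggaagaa

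Of 4 motifs searched on both strands, the core of the interferon-stimulated response element (GAAA, any 2 bases, GAAA) was in the B2m promoter, from base -139 to -130 before the start site, and in 3.44% of 32851 RefSeq promoter windows of 300 bases. The letters GGGGATT, part of the kappaB element of class I promoters, were in the H2-D1 promoter from -171 to -165 and in 3.10% of all windows. The STAT core TTCNNNGAA was in the Psmb8 promoter from -97 to -89 and in 8.30% of all windows. CCAAT, or ATTGG on the other strand, was in the B2m, H2-D1 and Psmb9-Tap1 sequences and in 37.4% of all windows. These are matches of letters, not measured binding sites. The RefSeq promoter table held 8 of the 10 genes, without Tap2 and Nlrc5. Among these, the interferon-stimulated response element core was matched in B2m alone and the STAT core in Psmb8 alone. GGGGATT was also in the windows of H2-K1, and CCAAT also in those of H2-K1 and Tapbp. Psmb10 held none of the 4 motifs. Sites that differ from a pattern in any letter were not searched.

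The number of counts decided which genes could be tested. Total counts ranged from 1256082 (VAT, lean mouse 1) to 16614407 (SAT, obese mouse 3), and 1 count was worth 0.796 CPM (counts scaled to the library total) in the first library and 0.0602 CPM in the second. VAT of lean mouse 1 and VAT of obese mouse 1, with 2247737 counts, were the shallowest libraries. Of the 28 rows 11 held at least 1 count. B2m, with 847115 counts over all libraries, H2-D1 (409988), Psmb8 (17978), Tap2 (16635) and Psmb10 (6406) each had 1 row, Tapbp (3124) and Tap1 (2209) had 1 row with counts, and Psmb9 (1196) had 2, of which the larger held 82.1% of its counts. The row with the most counts stands for each gene below unless the sum of its rows is named. No pair of libraries within a group agreed within sampling noise (chi-square per degree of freedom of 8.46 or more over 24 pairs). All 11 rows of H2-K1 were at 0 in all 16 libraries. A count of 0 allows up to 3 counts in a library, which is 0.181 to 2.39 CPM and covers counting error only. How reads shared by several transcripts were counted is not stated, and exons of H2-K1 overlap those of Gm53999 in the annotation. Protein-coding genes with 11 or more rows were at 0 counts in 20.3% of cases, those with 2 rows in 21.6% and those with 1 row in 34.8%. The shares with at most 50 counts were 59.8%, 48.1% and 53.4%, highest for genes with 11 or more rows. The reason for the 0 of H2-K1 was not tested, and no level is read from it. Nlrc5 had 32 counts in all, at most 0.767 CPM in a library, and was not tested. The other 8 genes exceeded 1 CPM in 3 or more libraries, the filter for testing. Markers of adipocytes (8 genes, Adipoq and Plin1 among them) were present in every library, with a summed level of 15229 to 57526 CPM.

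Within a library the light chain was the most abundant transcript of the set. Levels of different genes were compared per kilobase of transcript, for the 5 genes with a single row. B2m stood at 4784 CPM per kilobase in SAT of lean mice (n = 4), H2-D1 at 1119.9, Psmb8 at 51.7, Psmb10 at 25.9 and Tap2 at 22.3. In VAT of obese mice the same order held, at 4699, 1469, 105, 49.4 and 37.4 CPM per kilobase. The ranges of B2m, H2-D1, Psmb8 and Psmb10 were apart from each other in each of the 4 groups, while those of Psmb10 and Tap2 overlapped in each. B2m alone took 0.342% to 0.670% of all counts of a library.

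In VAT, 5 of the 8 tested genes were higher in obese than in lean mice, and none was lower, against 6.82% of all 13288 tested rows called higher and 4.09% called lower (edgeR quasi-likelihood F-test, adjusted p below 0.05). The called genes were H2-D1, B2m, Tap1, Psmb8 and Psmb10. All 8 fold changes were positive, from 0.37 to 0.89 on the log2 scale with a median of 0.65, beside a median of 0.02 over all tested rows. None of the genes had a log2 fold change above 1.5. For 5 of the 8 genes (H2-D1, B2m, Tap1, Tapbp and Psmb8) all obese libraries lay above all lean ones, as did those of 8.36% of all rows, while 4.99% of all rows were lower in obese mice without overlap.

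**Figure D1:**
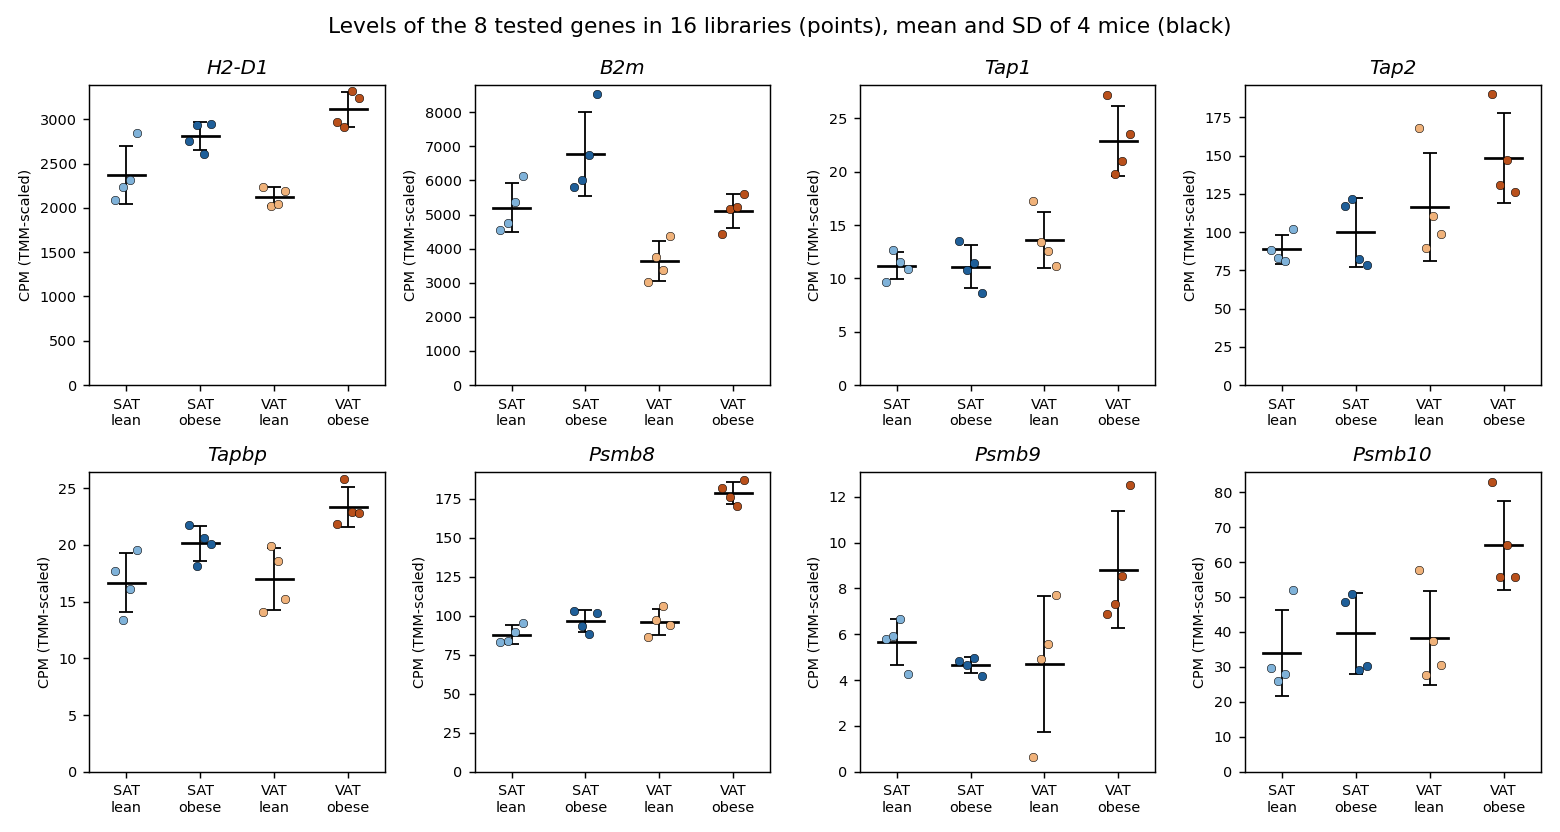
CPM scaled with TMM factors (y axis, linear from 0) of the 8 tested genes in the 4 groups; points are libraries, black bars are the mean and SD of 4 mice. The 4 VAT libraries of obese mice lie above all other libraries for Psmb8 (171 to 187 CPM) and Tap1 (19.8 to 27.2 CPM), while B2m has its highest mean in SAT of obese mice.

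Among the molecules that reach the cell surface, H2-D1, a classical heavy chain, was at 2240.0, 2022, 2042 and 2192 CPM in VAT of lean mice 1 to 4 and at 2971, 2913, 3322 and 3237 CPM in VAT of obese mice. Every obese library was above every lean one. The log2 fold change was 0.55 (SE 0.11, adjusted p = 0.00133). H2-D1 shares 4.61% of its 100-base stretches with other genes, mostly H2-Q1, so a small share of its reads may be uncertain. B2m, the invariant light chain, was at 3012, 3767, 3363 and 4378 CPM in lean and at 4418, 5175, 5229 and 5589 CPM in obese VAT. The groups lay next to each other without overlap, with a log2 fold change of 0.49 (SE 0.14, adjusted p = 0.0233). Its call was lost when any 1 of 6 of the 8 mice was left out (lean mice 1, 2 and 3, obese mice 2, 3 and 4, adjusted p 0.0525 to 0.0902).

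Of the transport and loading genes, Tap1, which forms the peptide transporter with Tap2, was at 17.3, 13.4, 12.5 and 11.2 CPM in lean and at 27.2, 19.8, 21.0 and 23.6 CPM in obese VAT. The groups did not overlap, and the log2 fold change was 0.78 (SE 0.18, adjusted p = 0.0052). Tap2 was at 168, 89.3, 110.3 and 98.5 CPM in lean and at 190.5, 131, 147 and 126 CPM in obese VAT. The groups overlapped through lean mouse 1, and the log2 fold change of 0.37 (SE 0.18) did not pass the test (adjusted p = 0.223). It was 0.19 to 0.55 with 1 mouse left out, and it passed without lean mouse 1 (0.55, adjusted p = 0.0394). Tapbp, the tapasin that holds the empty heavy chain at the transporter, was at 14.1, 19.9, 18.6 and 15.2 CPM in lean and at 21.8, 25.8, 22.9 and 22.8 CPM in obese VAT. Its groups did not overlap, but its log2 fold change of 0.43 (SE 0.15) did not pass the test over all rows (adjusted p = 0.0757).

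Psmb8 had the smallest p of the set. This immunoproteasome subunit with chymotrypsin-like activity was at 86.5, 97.3, 106 and 93.8 CPM in lean and at 182, 176, 171 and 187 CPM in obese VAT. The lowest obese library was well above the highest lean one, and the log2 fold change was 0.89 (SE 0.10, adjusted p = 5.46e-06), a 1.86-fold difference. Psmb10, the subunit with trypsin-like activity, was at 57.6, 27.8, 37.3 and 30.6 CPM in lean and at 82.8, 55.8, 65.0 and 55.7 CPM in obese VAT. Lean mouse 1 lay above 2 of the obese libraries, and the log2 fold change was 0.81 (SE 0.24, adjusted p = 0.0329). Without any 1 of 5 mice (lean 2, 3 and 4, obese 1 and 3) the call for Psmb10 was lost, at adjusted p 0.0572 to 0.136. Psmb9, which replaces the caspase-like subunit PSMB6, was at 0.641, 4.91, 5.58 and 7.73 CPM in lean and at 6.90, 7.34, 8.53 and 12.5 CPM in obese VAT, and the value of lean mouse 1 rests on 1 count. Its row did not pass the test (log2 fold change 0.74, SE 0.28, adjusted p = 0.103). With both rows of Psmb9 summed, lean VAT was at 5.12 to 8.51 CPM and obese VAT at 9.08 to 14.4 CPM without overlap, and the log2 fold change of 0.70 (SE 0.19) passed (adjusted p = 0.0165). Summing thus brought the genes called higher to 6 of 8, against 7.48% of 10710 summed genes.

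**Figure D2:**
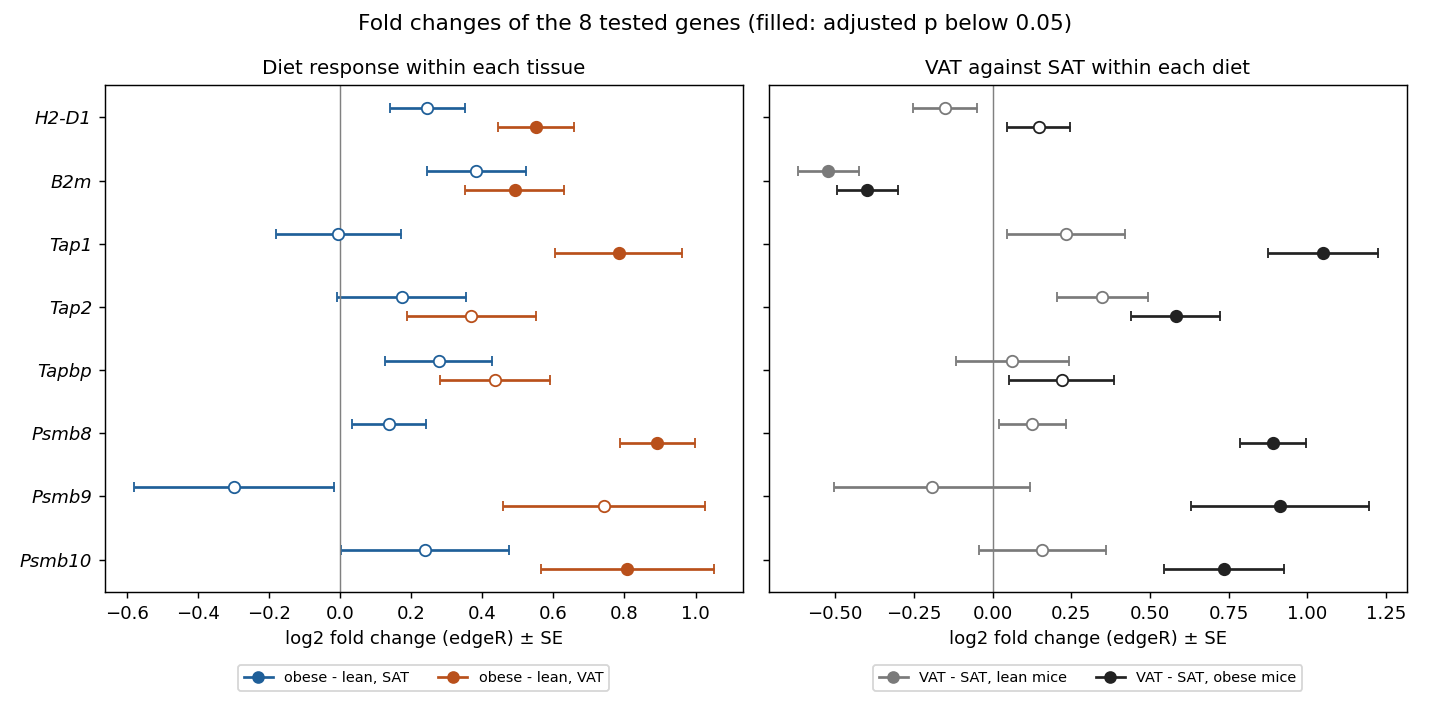
Log2 fold change with its SE (x axis) for each tested gene (y axis); left, obese against lean in SAT and in VAT; right, VAT against SAT in lean and in obese mice; filled points passed an adjusted p of 0.05. In SAT no point is filled, in VAT 5 are, and B2m lies left of 0 in both comparisons of the tissues.

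Markers of immune cells moved in the same libraries. Over all rows, 6.82% were called higher and 4.09% lower in obese VAT. In VAT, 8 of 10 tested macrophage markers were higher in obese mice, and the sum of the 11 markers rose from 2499 to 3263 CPM in lean to 5568 to 7913 CPM in obese VAT. Of 4 tested pan-leukocyte markers 3 were higher (sum of 5 markers, 273 to 432 and 758 to 1359.6 CPM). Of 6 tested T cell markers 4 were higher (sum of 9, 26.7 to 52.5 and 72.3 to 129 CPM), of 6 dendritic cell markers 4 (sum of 7, 44.1 to 59.7 and 142 to 294 CPM), of 7 B cell markers 3 (sum of 8, 44.4 to 313 and 268 to 501 CPM) and of 5 natural killer and cytotoxic markers 2 (sum of 8, 8.36 to 13.5 and 25.3 to 33.4 CPM). Klre1 was at 0 in lean VAT, and no other marker of these lists was at 0 throughout a VAT group. None of 7 tested endothelial markers was called (sum of 8, 289 to 378 and 304 to 406 CPM, Pecam1 at 0 in all 16 libraries). Of 4 tested lymph node stroma markers Ccl19 was higher (sum of 6, 277 to 463 and 357 to 562 CPM, Glycam1 at 0 in obese VAT). Of 8 adipocyte markers 3 were lower in obese VAT, Lipe, Adipoq and Plin1 (sum 20951 to 34199 and 15229 to 26083 CPM). None of 6 mesothelial markers differed in VAT by the test, and of 5 tested intestinal markers Zg16 was lower in obese VAT (sum of 7, 8.97 to 43.3 and 7.28 to 13.3 CPM). The share of counts on mitochondrial transcripts also moved with diet, at 14.9% to 18.6% in lean and 9.81% to 13.7% in obese VAT without overlap, and at 13.6% to 18.7% and 9.63% to 14.1% in SAT. The part of these cells and of this share in the levels of class I and immunoproteasome genes was not tested.

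**Figure D3:**
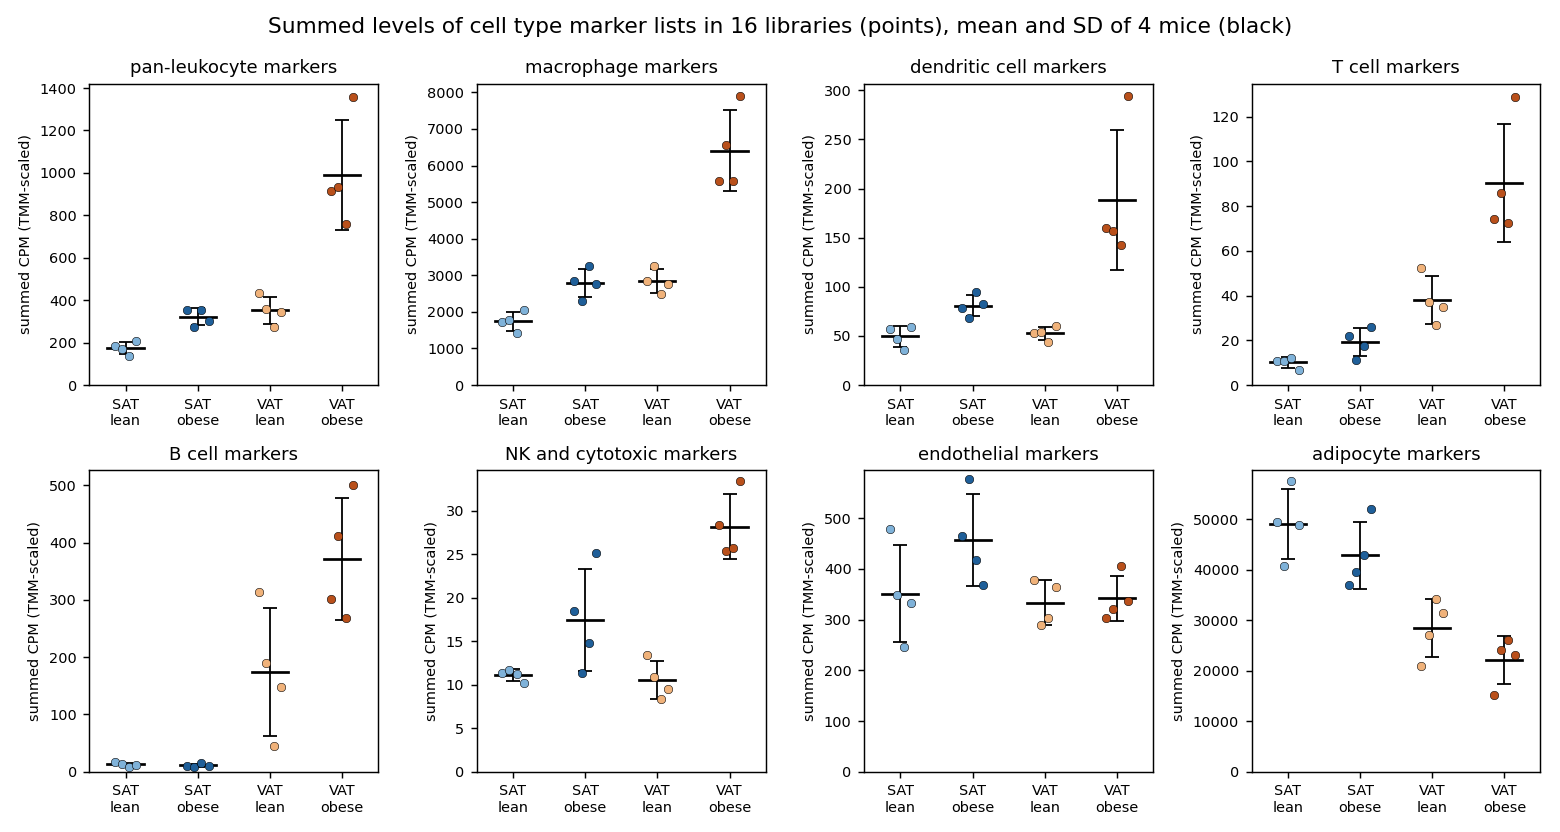
Summed CPM of 8 lists of cell type markers (y axis, linear from 0) in the 4 groups; points are libraries, black bars are the mean and SD of 4 mice. Macrophage and pan-leukocyte sums in obese VAT lie above those of all other libraries, and adipocyte sums are lower in VAT than in SAT.

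In SAT none of the 8 genes was called in either direction, against 6.20% of rows called higher and 4.85% called lower (edgeR, adjusted p below 0.05). The unadjusted p was below 0.05 for B2m (0.0114) and H2-D1 (0.0301). B2m was at 4535, 4749, 5364 and 6133 CPM in lean and at 5813, 6018, 6746 and 8525 CPM in obese SAT. Lean mouse 4 reached above 2 obese libraries, and the log2 fold change was 0.38 (SE 0.14, adjusted p = 0.0794). This call depended on the model: limma voom, fitted with a random effect per mouse and so differing in both the test and the pairing, called B2m and H2-D1 higher in SAT (adjusted p 0.0242 and 0.0366), edgeR without a filter on low counts called B2m (adjusted p = 0.0352), and DESeq2 called neither. H2-D1 was at 2092, 2233, 2309 and 2849 CPM in lean and at 2756, 2932, 2606 and 2948 CPM in obese SAT, with a log2 fold change of 0.25 (SE 0.11, adjusted p = 0.147). Psmb8 was at 82.9, 83.9, 89.6 and 95.5 CPM in lean and at 103, 93.6, 88.3 and 102 CPM in obese SAT, with a log2 fold change of 0.14 (SE 0.10, adjusted p = 0.446). Tap1 overlapped between the diets, at 11.2 CPM ± 1.26 (SD, n = 4) in lean and 11.1 CPM ± 2.02 in obese SAT. Tap2, Tapbp, Psmb9 and Psmb10 had log2 fold changes from -0.30 (Psmb9) to 0.28 (Tapbp), and none of the 8 rows separated the diets in SAT, against 9.61% of all rows higher and 7.64% lower in obese mice without overlap. With its rows summed, Psmb9 was at 6.47 to 8.01 CPM in lean and 5.40 to 6.14 CPM in obese SAT without overlap, which did not pass the test (log2 fold change -0.35, SE 0.19, adjusted p = 0.244). Immune markers differed in SAT too: 5 of 10 tested macrophage markers were higher in obese mice (sum 1421 to 2045 CPM in lean, 2303 to 3243 CPM in obese SAT), as were 2 of 4 pan-leukocyte markers (sum 139 to 209 and 275 to 356 CPM), 1 of 6 T cell, 1 of 6 dendritic cell and 1 of 7 endothelial markers. No marker of B cells, natural killer cells, lymph node stroma or adipocytes was called in SAT. Cd4 and Klre1 were at 0 in SAT of obese mice, Glycam1 and Madcam1 in SAT of lean mice, and Cr2 in both SAT groups. The part of these cells in the levels in SAT was not tested.

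The diet response was larger in VAT than in SAT for 1 gene, Psmb8. The difference between the responses, tested with the mouse as a block, was 0.76 on the log2 scale (SE 0.15, edgeR adjusted p = 0.0062), while 0.880% of all rows were called with a higher and 1.29% with a lower response in VAT. All 8 differences were positive. Tap1 came next at 0.82 (SE 0.25, adjusted p = 0.0987) and passed without the 2 shallowest VAT libraries (1.00, adjusted p = 0.045). For Psmb9 it was 1.11 (SE 0.42, adjusted p = 0.191), for Psmb10 0.58 (SE 0.28, adjusted p = 0.338), for H2-D1 0.30 (SE 0.14, adjusted p = 0.337) and for B2m 0.12 (SE 0.14, adjusted p = 0.746). With 1 mouse left out it was 0.23 to 0.80 for Psmb10 and 0.18 to 0.37 for H2-D1, each lowest without lean mouse 4, and 0.065 to 0.19 for B2m. Without a filter on low counts the call for Psmb8 was lost (0.69, adjusted p = 0.0771). Of the cell type markers, C1qb (macrophages, 1 of 10 tested), Pax5 and Blk (B cells, 2 of 7), Itgax (dendritic cells, 1 of 6) and Ccl19 (lymph node stroma, 1 of 4) were also called with a higher response in VAT. Vwf and Cldn5 (endothelium, 2 of 7) and Plin1 (adipocytes, 1 of 8) were called with a lower one. The part of these cells in the difference was not tested.

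Between the tissues of the same mice, B2m was lower in VAT under both diets after TMM scaling, and 5 other genes were higher in VAT of obese mice. B2m was lower in VAT than in SAT in 4 of 4 lean mice (log2 fold change -0.52, SE 0.10, edgeR adjusted p = 5.88e-04). It was also lower in 4 of 4 obese mice (-0.40, SE 0.10, adjusted p = 0.00353). As a share of all counts, without TMM factors, B2m was lower in VAT in each lean mouse. In obese mice 1 and 2 that share was slightly higher in VAT (0.513% and 0.540%, against 0.510% and 0.525% in SAT). In obese mice 3 and 4 it was lower (0.525% and 0.613%, against 0.588% and 0.670%). In lean mice no other gene was called, while 14.8% of rows were called in either direction and 6.84% lower in VAT, 16.8% of rows were higher in 4 of 4 mice and 17.8% of rows were lower in 4 of 4 mice. Tap1 was higher in VAT in 4 of 4 lean mice without passing the test (0.23, SE 0.19, adjusted p = 0.471). In obese mice 5 genes were higher in VAT, Tap1 (log2 fold change 1.05, SE 0.17, adjusted p = 7.39e-05), Psmb9 (0.91, SE 0.28, adjusted p = 0.0178), Psmb8 (0.89, SE 0.10, adjusted p = 9.23e-07), Psmb10 (0.74, SE 0.19, adjusted p = 0.00547) and Tap2 (0.58, SE 0.14, adjusted p = 0.00325). Each of these was higher in VAT in 4 of 4 obese mice, and the shares of all rows were 15.9% called higher, 13.5% called lower, 22.9% higher in 4 of 4 mice and 22.5% lower in 4 of 4 mice. H2-D1 (0.15, SE 0.10) and Tapbp (0.22, SE 0.17) were not called. Tapbp was also higher in VAT in 4 of 4 obese mice, which brought the genes with this pattern to 6 of 8. Psmb10 lost its call without obese mouse 3 (adjusted p = 0.0565) and Psmb9 without obese mouse 4 (adjusted p = 0.177). These values and the diet response in VAT share the 4 VAT libraries of obese mice. Cell type markers differed between the tissues under both diets. In lean mice 6 of 10 tested macrophage, 4 of 4 pan-leukocyte, 5 of 7 B cell, 3 of 6 T cell, 2 of 6 dendritic cell, 3 of 4 lymph node stroma, 1 of 7 endothelial and 2 of 5 intestinal markers were higher in VAT, and 2 of 8 adipocyte markers and Gzma, 1 of 5 natural killer and cytotoxic markers, were lower. In obese mice 9 of 10 macrophage, 4 of 4 pan-leukocyte, 6 of 7 B cell, 6 of 6 T cell, 4 of 6 dendritic cell, 4 of 4 lymph node stroma, 2 of 5 natural killer and cytotoxic and 1 of 5 intestinal markers were higher in VAT. Lower in VAT of obese mice were 6 of 8 adipocyte markers, Gzma, Zbtb46 (1 of 6 dendritic cell markers) and Cldn5 and Kdr (2 of 7 endothelial markers). The 6 mesothelial markers summed to 0.165 to 1.41 CPM in SAT and 248 to 605 CPM in VAT, with Msln, Upk1b and Wt1 at 0 in SAT. The part of these cells was not tested.

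**Figure D4:**
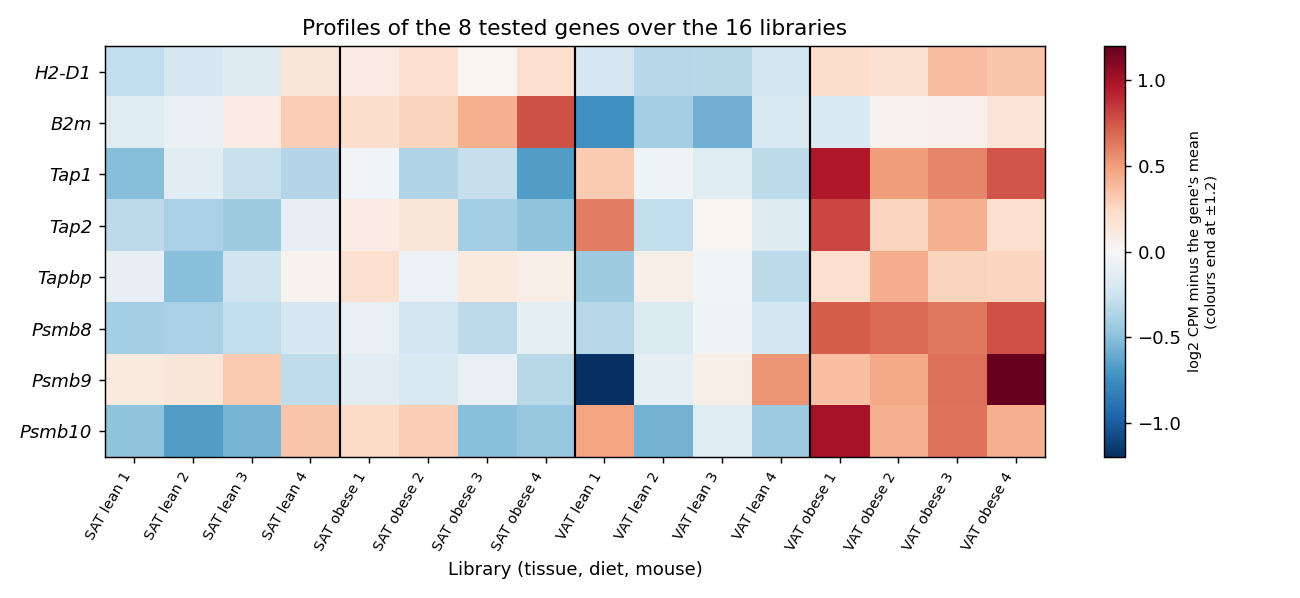
Log2 CPM of each tested gene minus its mean over the 16 libraries (colour, red above and blue below the mean), with genes in rows and libraries in columns, ordered by tissue, diet and mouse. VAT of obese mice is above the mean for each gene except B2m in obese mouse 1, and Tap2 and Psmb10 share their high libraries.

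Over the 16 libraries the genes did not vary alike. Tap2 and Psmb10 were each highest, within every group, in the library with the fewest counts: SAT of lean mouse 4, SAT of obese mouse 2, VAT of lean mouse 1 and VAT of obese mouse 1. In SAT of lean mice Psmb10 was at 29.7, 25.9, 28.0 and 52.1 CPM and Tap2 at 88.1, 83.3, 81.3 and 102 CPM. The part of depth in these values was not tested. Psmb8, by contrast, stayed within 86.5 to 106 CPM in lean and 171 to 187 CPM in obese VAT. Without both shallow VAT libraries 5 genes were still called higher in obese VAT, Psmb10 among them (0.88, adjusted p = 0.0202).

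Each immunoproteasome subunit has a standard counterpart that it replaces, and the ratio of both was taken within each library (CPM plus 0.5, rows summed). Psmb8 relative to Psmb5 went from a log2 ratio of 0.137 ± 0.234 in lean to 0.707 ± 0.123 in obese VAT (SD, n = 4), a 1.49-fold difference, with every obese library above every lean one. The exact permutation test gave p = 0.0286, the smallest that 4 against 4 allows, and 0.171 after adjustment over 6 ratios. Psmb5 shares 27.3% of its 100-base stretches with other genes, so its level is uncertain. Psmb10 relative to Psmb7 differed by 0.75 in VAT (exact p = 0.114, adjusted 0.343), with overlap through lean mouse 1. Psmb9 relative to Psmb6 differed by -0.57 (exact p = 0.4, adjusted 0.8), on few counts, since Psmb6 was at 0 in VAT of lean mouse 1 and at most 4.98 CPM with its rows summed. Without lean mouse 1 this difference was -0.13, with any 1 mouse left out -0.84 to -0.13, with a pseudocount of 0.1 it was -1.17 and with one of 2 it was -0.098, and it was -0.22 on the rows with the most counts alone. In SAT the differences were -0.02, 0.06 and 0.14 for the ratios to Psmb5, Psmb6 and Psmb7 (exact p = 0.886, 0.771 and 0.886).

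**Figure D5:**
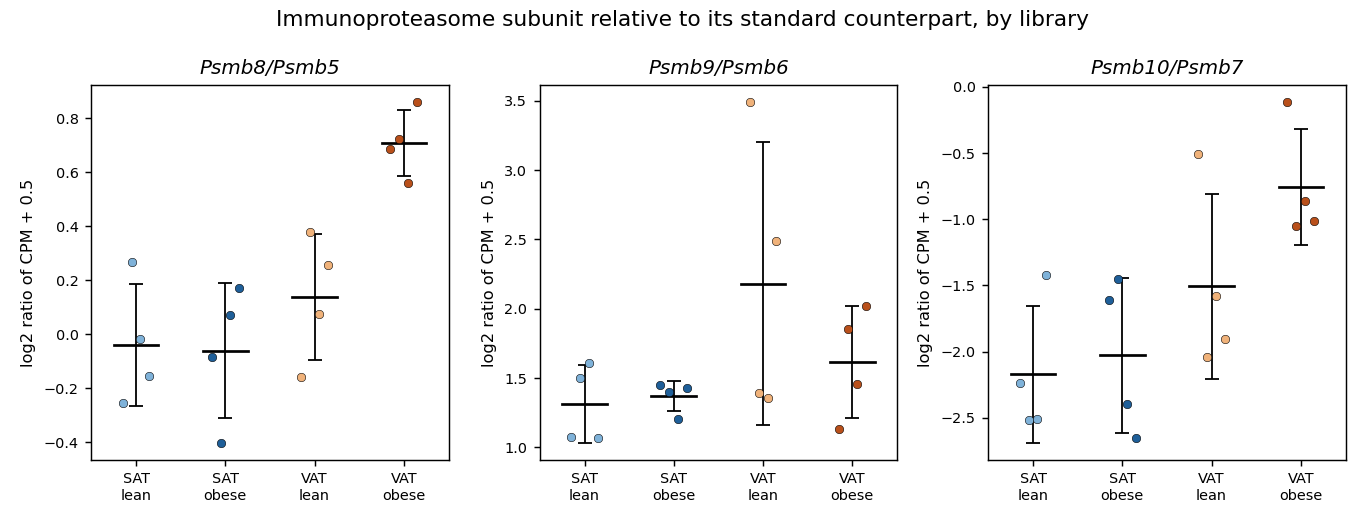
Log2 ratio of the CPM (plus 0.5) of each immunoproteasome subunit to that of the standard subunit it replaces (y axis, not from 0), by group; points are libraries, black bars are the mean and SD of 4 mice. For Psmb8 the obese VAT libraries lie between 0.56 and 0.86, above the lean VAT libraries at -0.16 to 0.38.

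None of the 14 core subunits of the standard proteasome was called for diet in SAT or in VAT (edgeR, adjusted p below 0.05), with a median log2 fold change of 0.16 in VAT. Over all rows, 6.20% were higher and 4.85% lower in obese SAT, and 6.82% and 4.09% in obese VAT. Between tissues, 4 of the 14 were lower in VAT of lean mice, where 6.84% of all rows were, namely Psma1 (-0.44), Psmb7 (-0.47), Psma2 (-0.43) and Psma6 (-0.40). In obese mice 6 were lower, against 13.5% of all rows, and the 4 with the smallest adjusted p were Psma6 (-0.62), Psmb7 (-0.53), Psmb2 (-0.40) and Psma4 (-0.61). Of 9 tested activators and assembly factors 1 was higher in obese VAT, where 6.82% of all rows were, and none was lower. This was Psme1, a subunit of the interferon-induced activator PA28, at 138 CPM ± 5.60 in lean and 188 CPM ± 5.46 in obese mice (log2 fold change 0.44, adjusted p = 0.00456). Its partner Psme2, named after its value was seen, was at 59.97 CPM ± 14.5 and 59.1 CPM ± 8.11 (adjusted p = 0.92).

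Other class I chains joined H2-D1 in obese VAT. Of 13 tested, 5 were higher and none lower, against 6.82% and 4.09% of all rows. H2-Q4, a non-classical chain, was at 181 CPM ± 11.3 in lean and 333 CPM ± 18.3 in obese VAT (log2 fold change 0.88, adjusted p = 4.87e-06). It was also the 1 chain called in SAT, where 6.20% of all rows were higher, at 205 CPM ± 19.0 and 338 CPM ± 23.96 (0.72, adjusted p = 6.39e-05). H2-T23, the Qa-1 chain that presents to natural killer receptors, was at 112 CPM ± 25.2 in lean and 206 CPM ± 24.6 in obese VAT (0.90, adjusted p = 2.10e-04), and its response was larger in VAT than in SAT (0.72, adjusted p = 0.0294). H2-M2 (3.11, adjusted p = 2.41e-05) and H2-T10 (0.85, adjusted p = 0.00594) were among the 5, with H2-M3 (1.03, adjusted p = 0.00674), named to complete the count after its value was seen. Class I genes of one family are similar in sequence, so reads may be split among them.

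Of the 8 genes for trimming and loading peptides, none was called in VAT, where 6.82% of all rows were higher and 4.09% lower. In obese SAT 1 was higher, against 6.20% of all rows, and none was lower. This was Canx, the chaperone calnexin (16.7 CPM ± 1.28 in lean and 24.2 CPM ± 2.16 in obese SAT, log2 fold change 0.53, adjusted p = 0.0469). Among 18 tested genes that control class I transcription or interferon signalling, 2 were higher in obese VAT, where 6.82% of all rows were. Ifngr2, a chain of the interferon-gamma receptor, was at 111 CPM ± 15.5 in lean and 159 CPM ± 27.8 in obese VAT (0.51, adjusted p = 0.0192). Ciita, the class II transactivator, was at 0.764 CPM ± 0.780 and 1.92 CPM ± 1.66 (fitted log2 fold change 2.05, adjusted p = 0.0439). The fitted change is larger than that of the group means. These values are near the floor, since 1 count was worth 0.796 CPM in VAT of lean mouse 1. In VAT of obese mouse 1 it was worth 0.445 CPM. Jak1, a kinase of the interferon-gamma receptor, was lower in obese SAT (4.03 CPM ± 1.35 and 1.94 CPM ± 0.287, -1.05, adjusted p = 0.0321). It was the 1 of the 18 genes called there, near the 4.85% of all rows called lower. Of 12 receptors for class I molecules, 3 had enough counts. Of these 1 was higher in obese SAT and 2 in obese VAT, against 6.20% and 6.82% of all rows. Cd8b1, a chain of the CD8 coreceptor, was higher in obese mice in SAT (1.302, adjusted p = 0.0367) and in VAT (1.35, adjusted p = 0.011), and Cd8a in VAT (1.75, adjusted p = 0.0305).

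The genes most like the set were ranked by the root mean square difference between their centred log2 CPM profile and the mean profile of the 8 genes, over the 16 libraries. That mean profile lay between -0.38 and 0.07 in the other 3 groups and between 0.37 and 0.51 in obese VAT. Of 10281 other genes, with a median difference of 0.586, the 10 closest included Gltp (0.128), Irak4 (0.133), Psme1 (0.138), Bst2 (0.140), Cdkn2aipnl (0.147), Pcna (0.149), Vat1 (0.151), Rpn1 (0.155) and Mis18a (0.159). Psmb8 was closer to the mean profile (0.167) than Psmb9 (0.677) or B2m (0.406). These are descriptions of 16 libraries that share tissue, diet and mouse.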

How the data were processed

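RNA-seq was made from SAT and VAT of 8 mice, 16 libraries in all. Per the labels, the authors trimmed reads with Trim Galore 0.6.6, aligned them to GRCm39 with HISAT2 2.2.0 and counted them with HTSeq 0.13.5. The deposited table gives counts and CPM per RefSeq transcript, and the deposited CPM equal the counts scaled to each column's total within 4.95e-10. Of 32 value columns the 16 with counts were analysed. The handling of reads shared by transcripts and the strand setting are not given in the sources used here. Symbols were matched for 106834 rows (82.0%).

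Counts were tested with edgeR 4.0.16 (quasi-likelihood F-test, TMM, R 4.3.3) on 13288 rows exceeding 1 CPM in 3 or more libraries, with Benjamini-Hochberg adjustment over all rows. Diet was tested in a model of the 4 group means, and tissue and the difference of diet responses with the mouse as a block. SAT and VAT share a mouse, so these numbers pair the libraries (correlation of deviations -0.01 to 0.17, median 0.08, over 8 pairs, and -0.15 to 0.12 between different mice). Each SE is on the log2 scale. Levels are CPM scaled with TMM factors. Ratios were compared with a two-sided exact permutation test. Alternatives were RLE size factors, other filters, DESeq2 1.42.0, limma 3.58.1 voom (random effect per mouse), rows summed per gene, each mouse left out and other pseudocounts. Scripts were tested on simulated data.

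The members and gene lists were chosen with earlier results of these data known. All members were named. Genes of the lists could be named where they were among the 4 called with the smallest adjusted p in a comparison. Not all of these are named, and marker lists are mostly given as counts. Of the 10 genes most like the set, 1 is not reported here. Promoters came from RefSeq (table of GRCm38.p6) and were placed on GRCm39 by exact match.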

Additional observations from a re-analysis of the deposited data

Results flagged for a closer look

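Psmb10 in SAT of lean mouse 4 stood apart from the other lean SAT libraries, at 52.1 CPM against 25.9 to 29.7 CPM. Its gap to the next library was 0.856 of the range of the group, above Dixon's limit for 4 samples. It was the 1 such sample in 44 groups examined, and chance alone marks about 1 in 20 groups. This library also had the fewest counts of its group (4604460), and the part of depth was not tested.

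The diet response of Psmb8 differed between the tissues, being larger in VAT than in SAT by 0.76 on the log2 scale (edgeR adjusted p = 0.0062). The values were 0.89 in VAT and 0.14 in SAT.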

How the results depend on the processing

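H2-D1, Tap1 and Psmb8 were called higher in obese VAT whichever mouse was left out (edgeR adjusted p at most 0.00993, 0.0447 and 1.00e-04), while B2m and Psmb10 were not. The 5 genes higher in obese VAT became 3 to 5 when 1 mouse was left out, with 3 left without lean mouse 2, lean mouse 3 or obese mouse 3. In SAT the count of 0 became 1 without a filter on low counts, 1 with the replicate number as a block (B2m, adjusted p = 0.00819), 2 with limma voom and the mouse as a random effect (both changed at once), and 0 to 1 with 1 mouse left out. The replicate block changed no other call for diet, and lean and obese mice of a number share only that number (correlation of deviations -0.09 to 0.17). Between tissues of lean mice the count higher in VAT was 0 to 1 with 1 mouse left out (Tap2 without lean mouse 4, edgeR adjusted p = 0.0436). For the difference of diet responses the count of 1 became 0 without a filter, 2 without the 2 shallowest VAT libraries (an alternative chosen after seeing the data), and 1 to 2 with 1 mouse left out. Tap2 was called higher in obese VAT without lean mouse 1 (adjusted p = 0.0394).

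Values near 0 changed sign. Tap1 in SAT was 0.019 without a filter, 0.00093 with the newer edgeR setting (legacy=FALSE), and -0.12 to 0.10 with 1 mouse left out. Between tissues of lean mice, Psmb9 was 0.052 and Psmb10 -0.083 without the 2 shallowest VAT libraries, and with 1 mouse left out they were -0.55 to 0.057 and -0.081 to 0.49, and Tapbp -0.13 to 0.22. The difference of responses of Tapbp was -0.023 to 0.35. In SAT the ratio of Psmb9 to Psmb6 differed by -0.014 with a pseudocount of 2 and by -0.024 to 0.16 with 1 mouse left out, that of Psmb8 to Psmb5 by -0.10 to 0.091, and that of Psmb10 to Psmb7 by -0.050 to 0.39. For these changes the cause was not tested. Among counts of called genes and ratios, 216 alternative values stayed as in the report or near it, 12 moved and 6 changed sign. A count that went from 5 to 4 was taken as staying. Among single genes 635 stayed, 11 gained and 14 lost a call, and 12 changed sign. Nlrc5 had too few counts for a test, and Psmb9 in VAT of lean mouse 1 rests on 1 count.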

Other observations

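Of 13 tested class I and class I-like chains, 1 was called lower and 1 higher in VAT of lean mice. In lean mice 14.8% of all rows were called in either direction and 6.84% lower. In obese mice 2 chains were lower and 5 higher, against 13.5% and 15.9% of all rows. Among these chains, Cd1d1, which presents lipids to natural killer T cells, was lower in VAT than in SAT under both diets. It was at 46.2 CPM ± 14.3 in SAT and 5.94 CPM ± 1.13 in VAT of lean mice (SD, n = 4), and at 71.0 CPM ± 10.97 and 9.22 CPM ± 4.42 in obese mice. The log2 fold changes were -2.85 (edgeR adjusted p = 1.23e-08) and -3.05 (adjusted p = 1.35e-09). H2-M2 was higher in VAT, at 0.464 CPM ± 0.694 in SAT and 2.15 CPM ± 0.901 in VAT of lean mice and at 0.539 CPM ± 0.221 and 17.4 CPM ± 5.59 in obese mice, with log2 fold changes of 2.38 (adjusted p = 0.00777) and 4.95 (adjusted p = 4.19e-09). Mr1, which presents vitamin B metabolites, was lower in VAT of obese mice (-0.78, adjusted p = 0.0111).

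Bcap31, a chaperone that helps class I molecules leave the endoplasmic reticulum, was lower in VAT than in SAT, by a log2 fold change of -0.77 in lean (edgeR adjusted p = 5.10e-04) and -1.32 in obese mice (adjusted p = 2.69e-07). Pdia3, a disulfide isomerase of the loading complex, was higher in VAT, by 0.31 (adjusted p = 0.0412) and 0.34 (adjusted p = 0.013). These were the only called genes of the 8 tested for trimming and loading peptides, 1 lower and 1 higher under each diet. In obese mice 13.5% of all rows were lower and 15.9% higher, so these counts are near the share over all rows. In lean mice 6.84% of all rows were lower and 14.8% were called in either direction.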
